A study of Mus musculus with 12 samples.

Results

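Chemokines and their receptors were followed in mouse dorsal root ganglia (DRG), the clusters of sensory neuron cell bodies beside the spinal cord, with and without a crush of the sciatic nerve. The members are the genes of the deposited table whose name is a chemokine ligand or receptor symbol: Ccl, Cxcl, Xcl, Cx3cl, Ccr, Cxcr, Xcr or Cx3cr followed by a number and, where the symbol has one, a small letter. The rule found 56 of the 44345 genes, 37 ligands and 19 receptors. The rule uses names only. Of the 56, 26 (18 ligands and 8 receptors) were above a value of 0.5 in at least 3 of the 12 libraries and were tested, and the other 30 lay at noise level.

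All mice were C57BL/6, aged 6 to 8 weeks, and RNA came from the L4 to L6 DRG, where most sciatic sensory neurons sit. The vehicle group received PBS by gavage once a day for 10 days and had no injury, and the IPA group received indole-3-propionic acid (IPA), a tryptophan product of gut bacteria, at 20 mg/kg on the same schedule. The vehicle crush and IPA crush groups received the same 10 days of PBS or IPA, then a sciatic nerve crush, and were taken 3 days later. IPA gavage went on over those 3 days, and whether PBS did is not clear from the labels. Each group had 3 libraries, and each library pooled the DRG of 2 mice. The labels give neither sex nor batch.

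Values are reads scaled to the depth of their library, with gene length not divided out. They are called deposited values here, and 1 read is worth 0.0130 to 0.0199 of that unit. The reads recovered from them numbered between 41694916 and 49481144 in vehicle libraries and between 51482387 and 56798355 in IPA libraries. Those of vehicle crush lay between 40938034 and 58013747 and those of IPA crush between 44808587 and 62501969. All 9 sensory neuron markers checked were above the filter, with a summed value of at least 10008.9 in every library. On principal components of all tested genes, vehicle crush replicate 1 stood apart on component 2 (23.56, against -5.04 and -1.29 in its group). On component 3, IPA crush replicates 3 (16.29) and 1 (-12.67) lay on opposite sides of replicate 2 (-3.18). IPA replicate 2 was picked for its values of chemokine genes, so leaving it out is no independent check on them. Vehicle crush replicate 1, IPA crush replicate 3 and IPA replicate 2 are called the 3 libraries that stood apart. IPA crush replicate 1 was kept. Members whose call changes without these 3 libraries are named in the last section.

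Chemokines are small secreted proteins that steer cells along their concentration gradient. Their receptors are seven-helix proteins that signal through inhibitory G proteins and are then shut off by receptor kinases and arrestins. CC ligands such as Ccl2 draw monocytes through Ccr2, ELR-type CXC ligands such as Cxcl1 draw neutrophils through Cxcr2, and interferon-induced CXC ligands such as Cxcl10 draw T cells through Cxcr3. In the DRG, macrophages sit around the neuron cell bodies and gather there after a peripheral nerve is injured, and Ccl2 is a known signal in that process. Cx3cl1, made by neurons and anchored in their membrane, and its receptor Cx3cr1 on macrophages are a well known pair of the sensory ganglion.

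RefSeq promoter windows of 6 members that rose after crush are shown first, to let the regulatory sequence be read beside the values that follow: Ccl8, Ccl9 and Ccl12 among ligands, and Ccr1, Ccr2 and Cx3cr1 among receptors. They are the 5 largest rises for which the RefSeq tables held a window, and Ccl12, a chromosome 11 neighbour of Ccl8. Each line is the 250 bases before the gene start that RefSeq gives on GRCm38.p6 (the same assembly as mm10), 5′ to 3′ on the gene's own strand. Capitals mark matches, on either strand, to any of 6 motifs: a TATA box (TATAAA), a PU.1 core (GAGGAA), an AP-1 site (TGANTCA), an NF-kB site (GGG and CC with a gap of 5 bases between them), an interferon response element (GAAA, a gap of 2 bases and GAAA again) and a STAT site (TTCNNNGAA).
Ccl8: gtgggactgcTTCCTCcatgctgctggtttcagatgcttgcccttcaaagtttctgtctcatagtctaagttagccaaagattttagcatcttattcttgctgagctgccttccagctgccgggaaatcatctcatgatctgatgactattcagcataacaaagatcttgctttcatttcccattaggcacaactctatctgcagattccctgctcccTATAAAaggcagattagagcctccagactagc
Ccl12: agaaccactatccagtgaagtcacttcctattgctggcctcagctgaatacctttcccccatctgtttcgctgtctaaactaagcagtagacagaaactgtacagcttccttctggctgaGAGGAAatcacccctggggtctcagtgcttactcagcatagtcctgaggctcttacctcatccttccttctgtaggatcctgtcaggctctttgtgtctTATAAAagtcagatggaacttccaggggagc
Ccl9: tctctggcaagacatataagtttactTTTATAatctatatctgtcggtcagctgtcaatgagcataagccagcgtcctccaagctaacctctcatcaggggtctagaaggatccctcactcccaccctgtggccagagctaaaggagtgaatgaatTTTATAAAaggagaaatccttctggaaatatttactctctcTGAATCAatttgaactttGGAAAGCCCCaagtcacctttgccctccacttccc
Ccr1: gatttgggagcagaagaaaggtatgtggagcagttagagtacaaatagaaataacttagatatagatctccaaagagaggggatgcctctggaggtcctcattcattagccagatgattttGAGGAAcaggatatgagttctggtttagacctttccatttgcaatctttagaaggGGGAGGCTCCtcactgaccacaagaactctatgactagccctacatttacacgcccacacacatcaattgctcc
Cx3cr1: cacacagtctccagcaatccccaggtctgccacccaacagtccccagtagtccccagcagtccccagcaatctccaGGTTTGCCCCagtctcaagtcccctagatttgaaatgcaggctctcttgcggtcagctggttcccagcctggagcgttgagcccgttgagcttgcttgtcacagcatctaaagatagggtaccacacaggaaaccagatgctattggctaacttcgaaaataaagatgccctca
Ccr2: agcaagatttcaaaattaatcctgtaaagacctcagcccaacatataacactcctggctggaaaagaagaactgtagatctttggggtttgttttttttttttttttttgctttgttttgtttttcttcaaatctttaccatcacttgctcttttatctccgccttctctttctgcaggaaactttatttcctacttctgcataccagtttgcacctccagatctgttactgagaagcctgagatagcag

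The windows lie at chr11:82114935-82115184 on the plus strand for Ccl8, chr11:82101595-82101844 on the plus strand for Ccl12 and chr11:83578637-83578886 on the minus strand for Ccl9. Those of the receptors lie at chr9:123968693-123968942 (minus) for Ccr1, chr9:120068297-120068546 (minus) for Cx3cr1 and chr9:124101933-124102182 (plus) for Ccr2. In GENCODE M21, Cx3cr1 starts further upstream, at 120069879, and Ccr2 at 124101950, so by that annotation the Cx3cr1 window and most of the Ccr2 window lie inside the gene, while the other 4 end at the gene start. Ccl8 has TATAAA at position -32 and Ccl12 at -31, counted back from the gene start, and each also has 1 PU.1 core, at -240 and -130. Ccl9 has 3 matches to the TATA letters, some of which overlap, 1 AP-1 match at -53 and 1 NF-kB match at -35. Ccr1 has a PU.1 core at -129 and an NF-kB match at -74, Cx3cr1 has an NF-kB match at -174, and the Ccr2 window holds none of the 6 motifs.

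Windows were found for 41 of the 56 members and for 10 of the 15 that rose. Of those 10, 3 hold TATAAA, 4 the PU.1 core, 5 the NF-kB letters and 1 each the AP-1, interferon and STAT letters. Among all 32851 windows of the same length, 12.4% hold TATAAA, 23.25% the PU.1 core, 45.8% the NF-kB letters, 6.75% the AP-1, 2.98% the interferon and 7.02% the STAT letters. A match describes letters in a window and is not evidence of a bound site.

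The first comparison asked what the crush did to these genes 3 days later. Averaged over both treatments, 15 of the 26 tested members rose and 6 fell, 5 did not pass (limma on log2(value + 0.5), Benjamini-Hochberg adjusted p under 0.05 over all tested genes). Among all 15603 tested genes 59.4% passed in this comparison, 28.8% upward and 30.6% downward. Without the 3 libraries that stood apart, 14 members rose and 6 fell. Members that rose were mainly the monocyte ligands and the receptors of monocytes and macrophages, while Cxcr4, Cxcr7, Ccr10, Ccl28, Cx3cl1 and Ccl1 fell by small amounts. The median log2 change of the tested members was 0.46, against -0.01 for all tested genes. Fewer than 3 uninjured libraries were above 0.5 for Ccl7, Ccl8, Ccl12, Ccr1, Cxcr2 and Cxcl9, and fewer than 3 crush libraries for Ccl1, Cxcl11 and Cxcl9, so the filter favours a difference in these genes and the counts are given as a description only. With no filter on low values, Ccl7, Ccl8, Ccl12 and Ccr1 also passed under vehicle, under IPA and averaged, with adjusted p of 0.000513 at most (limma, Ccl12 under IPA).

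Under vehicle alone, 13 rose and 4 fell, where 48.0% of all tested genes passed (23.6% up, 24.4% down). Under IPA alone, 14 rose and 3 fell, where 43.6% passed (21.2% up, 22.5% down). In 13 members every one of the 6 crush libraries was above every one of the 6 uninjured libraries, and in no tested member was every one below. Of all tested genes, 18.2% had such a gap upward and 17.5% downward. Group by group, 13 members had a gap upward and 4 downward under vehicle (25.4% and 26.0% of all tested genes), and 15 upward and 7 downward under IPA (27.2% and 30.8%). Among those with a gap over all libraries are Ccl2, Ccl6, Ccl7, Ccl8, Ccl9, Ccl11, Ccl12, Cxcl14, Cxcl16, Ccr1, Ccr2 and Cx3cr1. In bulk tissue, more cells of a type and more RNA per cell cannot be told apart, for these and all other members.

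**Figure D1:**
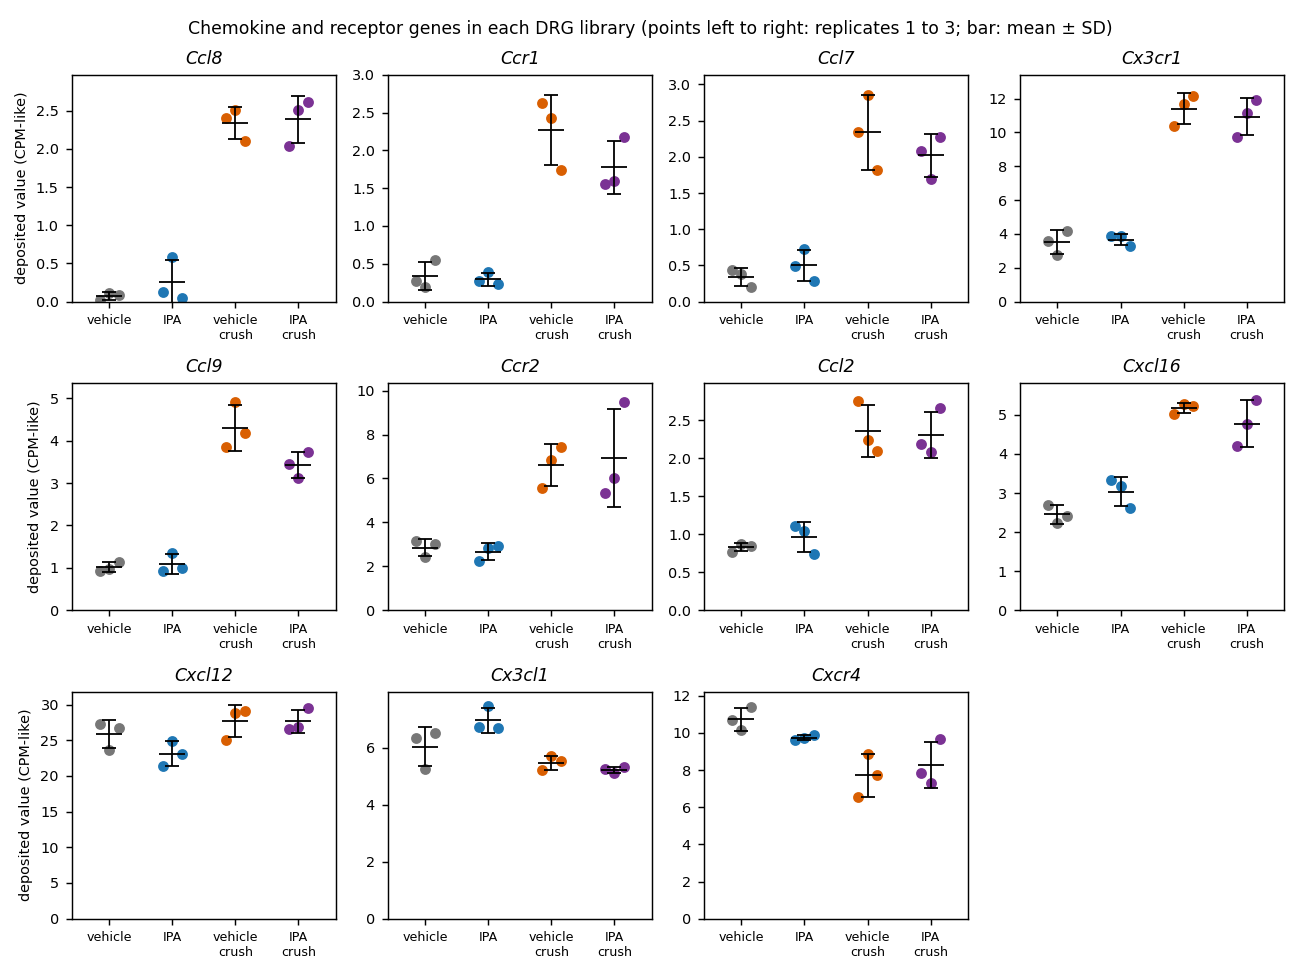
Deposited values (vertical axis, from 0) of 11 members in each library, with replicates 1 to 3 of each group as points and bars for mean ± SD. For Ccl8, Ccr1, Ccl7, Cx3cr1, Ccl9, Ccr2, Ccl2 and Cxcl16 all 6 crush libraries sit above all 6 uninjured ones, while Cxcl12, Cx3cl1 and Cxcr4 overlap.

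The 4 monocyte ligands, which act mainly through Ccr2 or, for Ccl8, through other CC receptors, all rose. Ccl8 (also MCP-2) had the largest change of any member. Its values were 0.0193, 0.114 and 0.0827 in vehicle libraries 1 to 3, which are 1, 6 and 5 reads, and 0.126, 0.589 and 0.0427 in IPA. After crush they were 2.41, 2.51 and 2.11 under vehicle and 2.03, 2.51 and 2.62 under IPA. The lowest crush library was thus above the highest uninjured one, IPA replicate 2, which itself stood above the other 5. The log2 change was 2.31 ± 0.20 (SE) under vehicle (adjusted p = 4.98e-07) and 2.00 ± 0.20 under IPA (adjusted p = 2.33e-06). As ratios of group means the rises were 32.5-fold and 9.45-fold, and the latter becomes 28.3-fold without IPA replicate 2. Both rest on few uninjured reads.

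Ccl7 (MCP-3) was at 0.443, 0.379 and 0.199 in vehicle and 0.488, 0.725 and 0.285 in IPA libraries. Crush libraries held 2.35, 2.85 and 1.81 under vehicle and 2.09, 1.70 and 2.27 under IPA, again with no overlap. Its averaged log2 change was 1.55 ± 0.13 (adjusted p = 1.33e-07), a ratio of means of 6.87 under vehicle and 4.05 under IPA.

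Ccl2 (MCP-1), the main Ccr2 ligand, was at 0.771, 0.872 and 0.844 in vehicle and 1.10, 1.04 and 0.740 in IPA. It reached 2.74, 2.23 and 2.09 after crush under vehicle and 2.19, 2.08 and 2.65 under IPA. The averaged log2 change was 1.02 ± 0.09 (adjusted p = 2.48e-07), with ratios of 2.84 and 2.40. Ccl12 (MCP-5), a mouse Ccr2 ligand, went from 0.317 ± 0.058 (SD, n = 3) to 0.933 ± 0.178 under vehicle and from 0.306 ± 0.032 to 0.754 ± 0.064 under IPA, an averaged log2 change of 0.72 ± 0.08 (adjusted p = 2.71e-06). For all 4 monocyte ligands the averaged change passed the test in each alternative setting that tested them and with any 1 library left out; a filter of 1 left Ccl12 untested.

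Of the 5 inflammatory CC ligands, Ccl6 and Ccl9 were tested and both rose, and Ccl3, Ccl4 and Ccl5 lay at noise level. Ccl9, a ligand of Ccr1, was at 0.925, 0.967 and 1.14 in vehicle and 0.914, 1.36 and 0.996 in IPA libraries. After crush it was at 3.84, 4.90 and 4.17 under vehicle and 3.46, 3.12 and 3.73 under IPA. All crush libraries were at more than the highest uninjured value, and all 3 IPA crush libraries were below all 3 vehicle crush libraries. The log2 change was 1.67 ± 0.12 under vehicle (adjusted p = 9.96e-08) and 1.31 ± 0.12 under IPA (adjusted p = 1.18e-06). Ccl6, also a Ccr1 ligand, went from 1.32 ± 0.31 to 2.60 ± 0.54 under vehicle and from 1.26 ± 0.41 to 2.48 ± 0.47 under IPA, with a log2 change of 0.77 ± 0.18 in each.

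Among the receptors of monocytes and macrophages, Ccr1, Ccr2 and Cx3cr1 rose. Ccr1, the receptor of Ccl6 and Ccl9 among others, was at 0.270, 0.190 and 0.546 in vehicle and 0.268, 0.393 and 0.228 in IPA. It was at 2.63, 2.43 and 1.74 after crush under vehicle and at 1.55, 1.60 and 2.18 under IPA. No library of one state reached the range of the other, and the averaged log2 change was 1.62 ± 0.12 (adjusted p = 5.50e-08), or ratios of 6.77 and 6.01.

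Cx3cr1, the receptor of Cx3cl1 and a mark of resident macrophages and microglia, was at 3.58, 2.75 and 4.17 in vehicle and 3.88, 3.86 and 3.27 in IPA libraries. After crush it stood at 10.4, 11.7 and 12.1 under vehicle and at 9.74, 11.1 and 11.9 under IPA. That is a ratio of 3.26 under vehicle and 2.98 under IPA, and an averaged log2 change of 1.52 ± 0.09 (adjusted p = 3.81e-09), the smallest p of any member.

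Ccr2, the receptor of Ccl2, Ccl7 and Ccl12 on inflammatory monocytes, was at 3.14, 2.43 and 3.00 in vehicle and 2.22, 2.85 and 2.90 in IPA. It reached 5.55, 6.84 and 7.45 after crush under vehicle and 5.32, 6.01 and 9.49 under IPA. The groups did not overlap, and the highest of the 12 values was that of IPA crush replicate 3. The averaged log2 change of Ccr2 was 1.14 ± 0.12 (adjusted p = 2.76e-06), and without the 3 libraries that stood apart it was 1.10.

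Macrophage markers moved with these genes. Of 14 such markers, 13 rose in the averaged comparison (28.8% of all tested genes did), with a median log2 change of 1.39, and Mertk did not pass. Their values summed to between 80.5 and 105.4 in vehicle and between 225.9 and 254.2 in vehicle crush libraries. Under IPA the sums lay between 81.2 and 112.0 before and between 216.8 and 263.4 after crush. None of the 14 was at 0. Of 6 monocyte markers, 4 were tested and 3 rose in the averaged comparison, while Ly6c2 did not pass (limma adjusted p = 0.0941). Under vehicle alone 2 rose (23.6% of all tested genes did), and under IPA alone 2 (21.2%). The sums of the 6 were 4.48 to 11.3 before and 10.6 to 18.7 after crush under vehicle. Under IPA they were 5.57 to 9.27 before and 10.2 to 27.3 after crush. The 27.3 was that of IPA crush replicate 3, against 10.5 and 10.2 in replicates 1 and 2. The part of these cells in the rises was not tested.

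**Figure D2:**
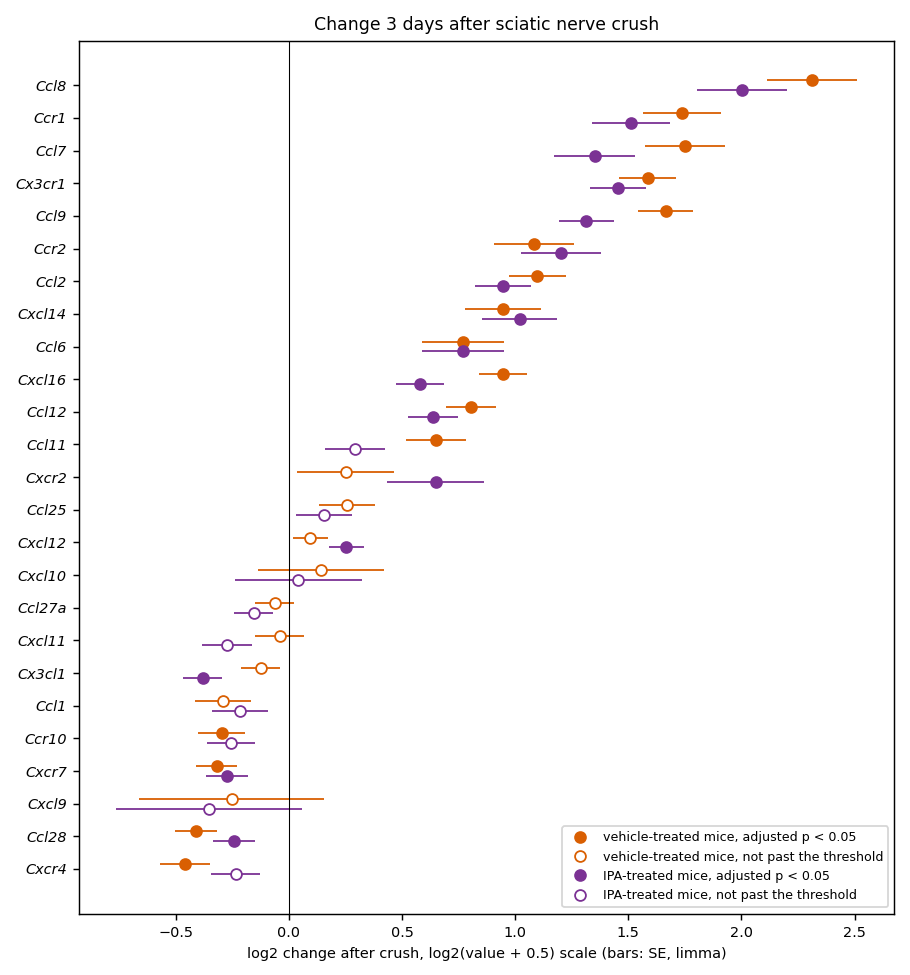
Log2 change after crush (horizontal axis, on the log2(value + 0.5) scale, bars ± SE from limma) of 25 of the 26 tested members, in vehicle-treated and IPA-treated mice, filled where the adjusted p was under 0.05. Ccl8 is at the top with 2.31 and 2.00, and Cxcr4 at the bottom with -0.46 and -0.24.

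The 2 membrane-tethered ligands, which are released by cutting enzymes, moved in opposite directions. Cxcl16, the ligand of Cxcr6, was at 2.70, 2.24 and 2.42 in vehicle and 3.32, 3.19 and 2.60 in IPA libraries. It rose to 5.03, 5.28 and 5.22 under vehicle and to 4.20, 4.76 and 5.38 under IPA, above every uninjured library. The log2 change was 0.95 ± 0.11 under vehicle (adjusted p = 6.33e-06) and 0.58 ± 0.11 under IPA (adjusted p = 0.000584).

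Cx3cl1 (fractalkine) was at 6.36, 5.25 and 6.50 in vehicle and 6.74, 7.47 and 6.68 in IPA libraries. After crush it was at 5.21, 5.70 and 5.53 under vehicle and at 5.24, 5.12 and 5.31 under IPA. Vehicle and vehicle crush overlapped (log2 change -0.12 ± 0.09, adjusted p = 0.257), while all 3 IPA crush libraries were below all 3 IPA libraries (-0.38 ± 0.09, adjusted p = 0.00275). The difference between these changes was -0.26 ± 0.12 with an adjusted p of 0.9997, so it did not pass. The averaged fall of Cx3cl1 was small beside the rise of its receptor, -0.25 ± 0.06 against 1.52 ± 0.09 on the log2 scale. Of 9 sensory neuron markers, 6 also fell (30.6% of all tested genes did) and 1 rose (28.8%) in the averaged comparison, with a median of -0.34. The part of sensory neurons in the fall of Cx3cl1 was not tested.

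Cxcl12, made by stromal cells and the ligand of Cxcr4 and of the scavenger Cxcr7 (now Ackr3), was at 27.3, 23.6 and 26.7 in vehicle, 21.4, 24.9 and 23.0 in IPA, 25.1, 28.8 and 29.0 in vehicle crush and 26.5, 26.9 and 29.5 in IPA crush. The 4 ranges lie close together. The averaged log2 change was 0.17 ± 0.06 (adjusted p = 0.0152), and it passed under IPA (0.25 ± 0.08, adjusted p = 0.0181) but not under vehicle (0.09 ± 0.08, adjusted p = 0.345). The call under IPA is lost without IPA replicate 1 (adjusted p = 0.0882) or IPA crush replicate 3 (adjusted p = 0.0697).

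Cxcr4 was at 10.7, 10.2 and 11.4 in vehicle, 9.63, 9.71 and 9.89 in IPA, 6.56, 8.86 and 7.74 in vehicle crush and 7.82, 7.28 and 9.65 in IPA crush. Vehicle and vehicle crush did not overlap, while IPA crush replicate 3 reached into the IPA range. The log2 change was -0.46 ± 0.11 under vehicle (adjusted p = 0.00330) and -0.24 ± 0.11 under IPA (adjusted p = 0.0971). Under IPA it passes without IPA crush replicate 3 (-0.35, adjusted p = 0.0174) or without vehicle crush replicate 1 (adjusted p = 0.0492), which enters that fit only through the shared spread. Cxcr7 went from 6.38 ± 0.36 to 5.01 ± 0.29 under vehicle (log2 change -0.32 ± 0.09, adjusted p = 0.0107). Under IPA Cxcr7 went from 5.55 ± 0.71 to 4.48 ± 0.21 (-0.27 ± 0.09, adjusted p = 0.0265), which is lost without IPA replicate 2 (adjusted p = 0.139), IPA crush replicate 1 (0.0767) or IPA crush replicate 3 (0.0622). So the ligand rose slightly and both of its receptors fell in the averaged comparison.

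Among the other ligands grouped as homeostatic, made at barriers and in lymphoid tissue without inflammation, Cxcl14 rose and Ccl28 fell. Cxcl14 went from 0.586 ± 0.127 to 1.59 ± 0.16 under vehicle and from 0.723 ± 0.337 to 1.91 ± 0.08 under IPA, an averaged log2 change of 0.98 ± 0.12 (adjusted p = 7.07e-06). Ccl28, a ligand of Ccr10 made by epithelia, went from 2.10 ± 0.05 to 1.47 ± 0.17 under vehicle (log2 change -0.41 ± 0.09, adjusted p = 0.00250). Under IPA Ccl28 went from 1.51 ± 0.10 to 1.20 ± 0.07 (-0.24 ± 0.09, adjusted p = 0.0493), just inside the threshold. That call is lost when any library but vehicle crush replicate 1 is left out, with an adjusted p of 0.163 at most.

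Ccr10, the receptor of Ccl27a and Ccl28, went from 1.62 ± 0.21 to 1.22 ± 0.07 under vehicle (-0.30 ± 0.11, adjusted p = 0.0321) and from 1.90 ± 0.25 to 1.5 ± 0.04 under IPA (-0.26 ± 0.11, adjusted p = 0.0656). The first call is lost without vehicle replicate 1 (adjusted p = 0.134) or 2 (0.0708) and without vehicle crush replicate 1 (0.0719) or 2 (0.0756), and the second is gained without IPA replicate 1 (0.0262). Ccl27a, whose exons overlap those of Il11ra1 on the other strand, was at 8.69 ± 0.45 and 8.31 ± 0.79 before and after crush under vehicle and 10.1 ± 0.3 and 9.03 ± 0.86 under IPA. Ccl25, the ligand of Ccr9, was at 1.04 ± 0.20 and 1.34 ± 0.13 under vehicle and 1.15 ± 0.21 and 1.33 ± 0.15 under IPA. Its averaged log2 change of 0.21 ± 0.09 had an adjusted p of 0.0569, which passes without vehicle replicate 1 (0.0259), IPA replicate 1 (0.0248) or IPA crush replicate 1 (0.0401), and that of Ccl27a was -0.11 ± 0.06 (adjusted p = 0.137).

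Ccl11 (eotaxin), which draws eosinophils through Ccr3, rose from 3.52 ± 0.38 to 5.84 ± 0.94 under vehicle (log2 change 0.65 ± 0.13, adjusted p = 0.00107). Under IPA Ccl11 was at 4.05 ± 0.50 before and 5.08 ± 0.79 after crush (0.29 ± 0.13, adjusted p = 0.0894), with no overlap between the groups. The difference between the 2 changes was -0.36 ± 0.19 (adjusted p = 0.9997). Ccl1, a ligand of Ccr8, was barely above the filter, with only 3 uninjured libraries above 0.5, and went from 0.533 ± 0.125 to 0.343 ± 0.087 under vehicle and from 0.505 ± 0.113 to 0.361 ± 0.008 under IPA. Its averaged fall (-0.25 ± 0.09, adjusted p = 0.0229) is lost without vehicle replicate 2 (0.0613), IPA replicate 2 (0.0650) or vehicle crush replicate 3 (0.0591). Under vehicle alone Ccl1 did not pass (adjusted p = 0.0687), and does so without vehicle replicate 3 (0.0337) or vehicle crush replicate 1 (0.0331).

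None of the 3 interferon-induced ligands of Cxcr3 passed the test. Cxcl10 was at 1.36 ± 0.52 in vehicle, 2.05 ± 1.06 in IPA, 1.52 ± 0.36 in vehicle crush and 1.98 ± 0.48 in IPA crush, with an averaged log2 change of 0.09 and a 95% interval of -0.33 to 0.52. Cxcl9 was at 0.308, 0.436 and 0.579 in vehicle, 0.362, 2.51 and 0.171 in IPA, 0.418, 0.272 and 0.181 in vehicle crush and 0.183, 0.482 and 0.745 in IPA crush. IPA replicate 2, from uninjured mice, was thus far above the other 11 libraries, and without it the averaged log2 change of Cxcl9 turns from -0.30 to 0.028. The same library had the highest value of the 12 for Cxcl10 (3.00) and of the 6 uninjured libraries for Ccl8 (0.589) and Ccl7 (0.725). Cxcl11 was at 0.491 ± 0.111 and 0.459 ± 0.037 under vehicle and at 0.624 ± 0.028 and 0.432 ± 0.071 under IPA (log2 change -0.27 ± 0.11, adjusted p = 0.0563). Under IPA it passes without IPA crush replicate 3 (0.0384) or without vehicle replicate 1 (0.0484) or 2 (0.0455). It also passes with limma under no filter (adjusted p = 0.0491) or quantile normalization (0.00910), and with edgeR on recovered reads (adjusted p = 0.0454). The averaged log2 difference of Cxcl11 was -0.16 ± 0.08 (adjusted p = 0.0931), which passes without vehicle replicate 1 (0.0458) or with quantile normalization (0.00538). Cxcr3, their receptor, was at noise level with 4 to 22 reads a library.

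The neutrophil ligands Cxcl1, Cxcl2, Cxcl3 and Cxcl5 were all at noise level. Cxcl1 had 5, 2 and 2 reads in vehicle, 4, 5 and 7 in IPA, 1, 4 and 7 in vehicle crush and 11, 16 and 10 in IPA crush. Cxcl5 had 3 to 15 reads a library, Cxcl2 at most 5, and Cxcl3 was at 0 in all 12, which allows up to 3 reads in each (counting error only). Their receptor Cxcr2 was above the filter, at 0.451 ± 0.228 in vehicle, 0.314 ± 0.056 in IPA, 0.625 ± 0.235 in vehicle crush and 0.806 ± 0.373 in IPA crush. Its highest value, 1.24, was that of IPA crush replicate 3.

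For Cxcr2 the log2 difference was 0.25 ± 0.22 under vehicle (adjusted p = 0.362), 0.65 ± 0.22 under IPA (adjusted p = 0.0256) and 0.45 ± 0.15 averaged (adjusted p = 0.0208). Without IPA crush replicate 3 the change under IPA drops to 0.42 (adjusted p = 0.122) and the averaged one to 0.34 (adjusted p = 0.0539). The call under IPA is also lost with no filter on low values (0.0627) and without IPA replicate 1 (0.0810) or 3 (0.0561), and the averaged one without vehicle replicate 2 (0.0570) or vehicle crush replicate 2 (0.0528). Of 12 neutrophil markers 11 were tested. Of these, 2 rose under vehicle (23.6% of all tested genes did), 5 under IPA (21.2%) and 8 in the averaged comparison (28.8%). The 2 under vehicle were Ly6g and Il1f9, which also rose under IPA and averaged. Ly6g averaged 0.146 in vehicle and 0.166 in IPA libraries, and Il1f9 0.198 and 0.275. Both thus passed the filter only through crush libraries, so the filter favours a difference in them. The values of all 12 neutrophil markers summed to between 14.8 and 53.0 before and 40.7 and 74.6 after crush under vehicle. Under IPA these sums were between 19.3 and 35.4 before and 35.4 and 134.4 after crush, the highest again in replicate 3. The part of neutrophils in the values of Cxcr2 was not tested.

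The 30 members at noise level cover most lymphocyte receptors and their ligands. Just outside the filter were Ccl5 and Cxcr5, each above 0.5 in 1 library, and just inside were Ccl1 and Cxcl9, each in 3. Ccl5, a ligand of Ccr1, had 8 to 23 reads before and 16 to 24 after crush under vehicle, and 11 to 41 before and 17 to 27 after crush under IPA, the 41 again in IPA replicate 2. Cxcr5, the B cell receptor of Cxcl13 whose exons overlap Bcl9l on the other strand, had 14 to 29 reads a library, and Ccl22, a Ccr4 ligand, had 6 to 25. Ccl21a, Ccl21b, Ccl27b and Cxcl3 were at 0 in all libraries. The first 3 have near-identical copies, whose reads the counting may drop, so a 0 there does not bound their RNA. Of 10 T and NK cell markers only Cd4 and Lck were above the filter, and of 5 B cell markers only Cd79a and Cd79b.

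Testing these low genes needed reads rather than scaled values, so edgeR's quasi-likelihood test was run on every gene with at least 10 recovered reads in all, which 47 members had, 21 of them at noise level. Averaged over treatments 16 members rose and 7 fell, where 43.9% of all genes so tested passed in either direction. Of the 21, only Ccl19 and Ccl24 passed. Ccl19, a Ccr7 ligand of lymphoid tissue, had 1 to 4 reads in uninjured and 3 to 10 in crush libraries, a log2 change of 1.30 (edgeR adjusted p = 0.0218). Ccl24, a Ccr3 ligand, had 8 to 13 reads in uninjured and 1 to 9 in crush libraries, a log2 change of -1.42 (edgeR adjusted p = 0.00700). Both were also called under IPA alone and neither under vehicle alone, and neither passed the test of the difference between these changes. Under vehicle alone 13 members rose and 3 fell with edgeR (33.8% of all genes so tested passed), and under IPA alone 15 rose and 3 fell (31.2%). The other 19 of the 21 did not pass, at 11 to 235 reads over the 12 libraries, which does not show that they stayed the same.

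**Figure D3:**
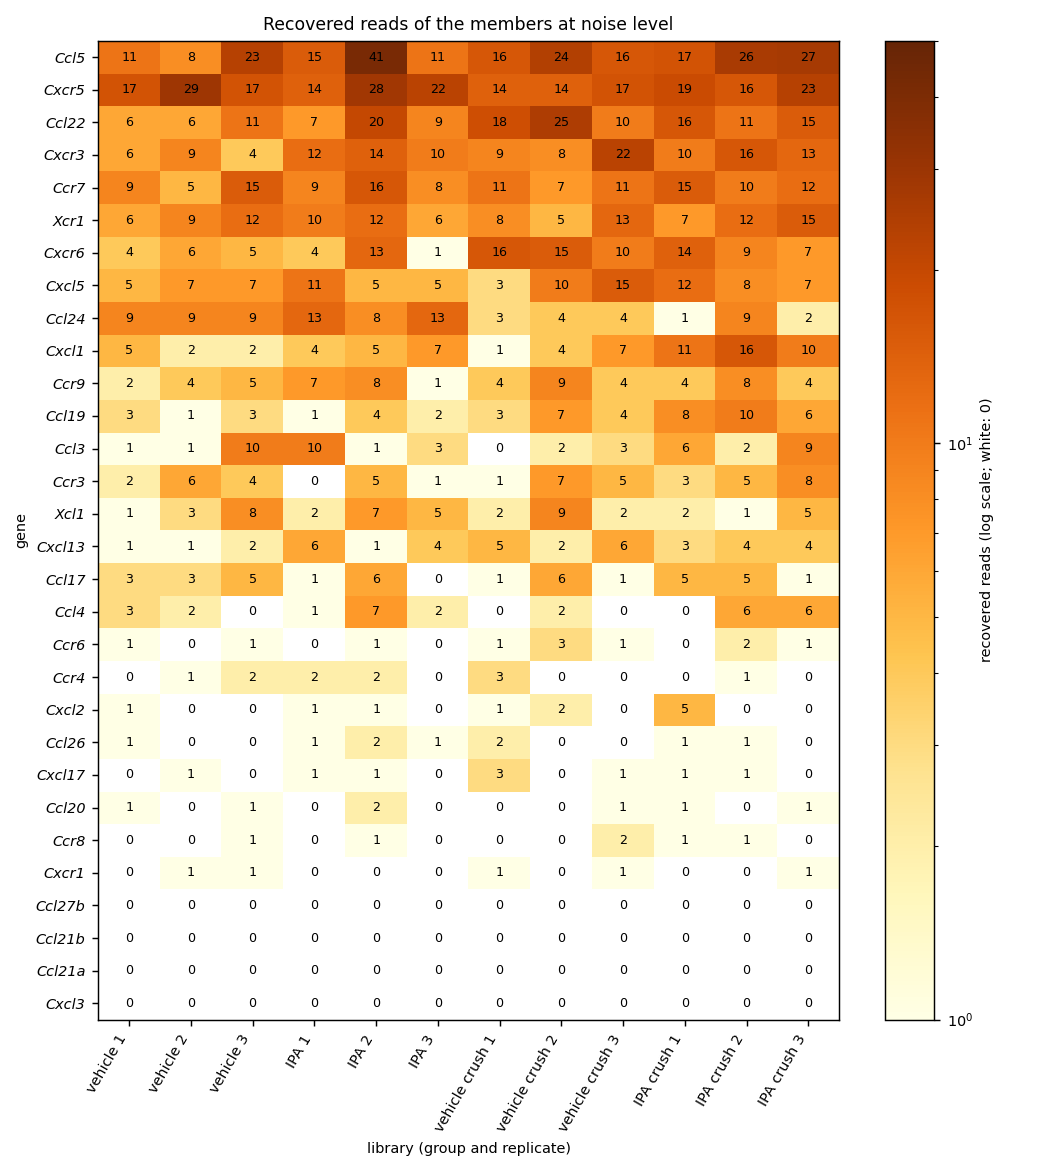
Recovered reads (numbers and color on a log scale, white for 0) of the 30 members at noise level, in rows, by library, in columns. Ccl5 reaches 41 reads in IPA replicate 2, and the 4 lowest rows are at 0 in every library.

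Many members lie in gene clusters that arose by duplication, and on mm10 with GENCODE M21 coordinates the rises followed position only in part. On chromosome 11, from 82035571 to 82305690, lie Ccl2, Ccl7, Ccl11, Ccl12, Ccl8 and Ccl1, all tested. The first 5 rose by between 0.47 (Ccl11) and 2.16 (Ccl8) on the averaged log2 scale, and Ccl1, at the far end, fell by 0.25. Further along, from 83525778 to 83664683, Ccl9 and Ccl6 rose, and their neighbours Ccl5, Ccl3 and Ccl4 were at noise level. The receptor cluster on chromosome 9 holds Ccr1 and Ccr2, which rose, and Ccr9, Cxcr6, Xcr1 and Ccr3, which were at noise level. On chromosome 5, the neutrophil ligands from 90759360 to 90905938 were all at noise level, and Cxcl9, Cxcl10 and Cxcl11 from 92321347 to 92365485 were all tested with none called.

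**Figure D4:**
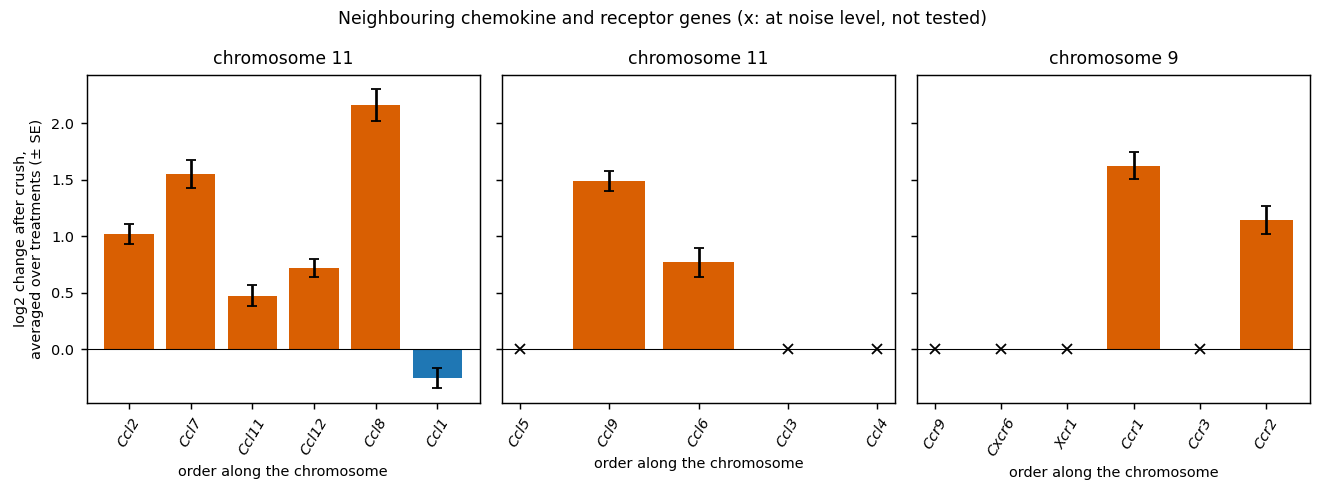
Averaged log2 change after crush (bars ± SE, vertical axis) of members in their order along 3 gene clusters, with a cross for members at noise level, which were not tested. On chromosome 11 Ccl8 stands at 2.16 beside Ccl1 at -0.25, and on chromosome 9 Ccr1 and Ccr2 rose beside 4 genes at noise level.

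Ligands and receptors were also read as 30 known pairs. In 5 pairs both genes rose in the averaged comparison: Ccl2, Ccl7 and Ccl12 with Ccr2, and Ccl6 and Ccl9 with Ccr1. In 8 pairs the receptor rose while the ligand was at noise level, among them Ccl3 and Ccl5 for Ccr1, and Cxcl1, Cxcl2 and Cxcl5 for Cxcr2. Cxcl12 rose and Cxcr4 fell, Cx3cl1 fell and Cx3cr1 rose, and Ccl28 and Ccr10 both fell. Cxcl16 and Ccl11 rose with their receptors Cxcr6 and Ccr3 at noise level. In 7 pairs neither gene was tested, among them Ccl19 and Ccl21a with Ccr7. Cells outside the ganglion can carry a receptor or make a ligand, and these RNA values do not cover them.

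Divided by exon length, levels were set side by side between genes. The lengths cover all GENCODE M21 exons of a gene, and the annotation used for counting is not known, so the order is approximate. For Ccl27a it also rests on reads that cannot be assigned to its strand with certainty. In vehicle DRG the order of deposited value per kilobase began with Cxcr4 (5.94 ± 0.34), Ccl27a (3.65 ± 0.19), Ccl11 (3.25 ± 0.36) and Cxcl12 (3.16 ± 0.24), then Cxcr7 (1.91 ± 0.11) and Cx3cl1 (1.54 ± 0.17). The range of mean ± SD of Ccl11 overlaps those of Ccl27a and Cxcl12, which do not overlap each other, and Cxcr4 was above the others by more than the spread. Ccl8 was in place 23 of all members with 0.141 ± 0.094. After crush under vehicle the order per kilobase was Ccl11 (5.40 ± 0.87), Ccl8 (4.58 ± 0.41), Cxcr4 (4.27 ± 0.63), Ccl27a (3.50 ± 0.33) and Cxcl12 (3.38 ± 0.27), followed by Ccl7 (2.92 ± 0.65) and Cx3cr1 (2.53 ± 0.20). The first 3 do not differ beyond their spread. Under IPA crush the same 7 genes led in the same order, with Ccl8 at 4.67 ± 0.61. Not per length, the summed deposited value of all 56 members was 81.4 to 95.8 in uninjured and 105.0 to 125.4 in crush libraries.

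Other genes of the chemokine pathway were read from lists. Of 4 chemokines whose names fall outside the rule, all were tested and Pf4 (Cxcl4, of platelets and macrophages) rose by 1.32 ± 0.12 on the averaged log2 scale (adjusted p = 4.4e-07), while Mif (0.16 ± 0.08), Cklf (-0.05 ± 0.08) and Ppbp (0.06 ± 0.21) did not pass. Of 5 atypical receptors, which bind chemokines without G protein signalling, 3 were tested and Cxcr7 fell. Darc, also known as Ackr1, a chemokine transporter of venules and red cells, had a log2 difference of 0.10 ± 0.07 and Ccrl2 one of 0.16 ± 0.07, and neither passed.

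Of 13 genes for G protein signalling and receptor shutdown 12 were tested, of which 6 rose and 4 fell (28.8% and 30.6% of all tested genes did). Rgs18, among those that rose, averaged 0.221 in vehicle and 0.197 in IPA libraries and passed the filter only through crush libraries. Arrb1, an arrestin, rose by 0.74 ± 0.03, the receptor kinase Grk6 rose by 0.69 ± 0.04 and Adrbk1 (Grk2) fell (-0.37 ± 0.04). These genes work for many receptors and in neurons too. Of 14 genes for leukocyte migration downstream of the receptors, 12 were tested, 8 rose (28.8% of all tested genes did) and 2 fell (30.6%). Pik3cg, the kinase subunit that G proteins activate in leukocytes, rose by 1.56 ± 0.13 and the integrin Itgam by 1.55 ± 0.12, while Plcb3, a phospholipase that sensory neurons also express, fell (-0.76 ± 0.04). Of 7 proteases that cut chemokines or free the tethered ones, 6 were tested and 3 rose (28.8% of all tested genes did). These were Ctss, the macrophage protease that frees Cx3cl1, by 1.49 ± 0.12, Mmp2 by 0.50 ± 0.07 and Adam10 by 0.23 ± 0.04. All genes said here to rise or fall passed limma at an adjusted p under 0.05, where 59.4% of all tested genes did.

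The second comparison asked whether IPA changed these genes. No member passed in any of the 4 comparisons with IPA: without injury, after crush, averaged over both states, and the interaction, which asks whether the crush response differs between treatments. The share of all tested genes that passed limma was 0.0% in each, and edgeR called none as well. At an unadjusted p under 0.05 there were 4, 2, 4 and 1 of the 26 members, and 1902, 1258, 3153 and 327 of all 15603 genes. The comparisons share libraries with those of injury, so a low or high vehicle group enters both.

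Without injury the smallest p was that of Ccl28, at 2.12, 2.14 and 2.05 in vehicle and 1.62, 1.46 and 1.44 in IPA libraries. The groups did not overlap, and the log2 difference was -0.38 ± 0.09 (95% interval -0.58 to -0.18, limma adjusted p = 0.408). After crush Ccl28 was at 1.27, 1.56 and 1.56 under vehicle and 1.13, 1.28 and 1.18 under IPA, where the ranges overlapped by 1 library (-0.21 ± 0.09, adjusted p = 0.616). Averaged over both states the difference was -0.29 ± 0.07 (adjusted p = 0.157). The next smallest p without injury were those of Cxcl16 (0.26 ± 0.11), Ccl27a (0.21 ± 0.09) and Cx3cl1 (0.19 ± 0.09), each with an adjusted p of 0.408. Groups without overlap in this comparison were seen for Ccl27a and Cx3cl1 upward and Ccl28 and Cxcr4 downward, where 12.7% and 12.5% of all tested genes had such gaps.

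After crush the smallest p was that of Ccl9, whose values are given above, with a log2 difference of -0.29 ± 0.12 (95% interval -0.55 to -0.02, adjusted p = 0.604). Ccr10 (0.22 ± 0.11) and Ccl12 (-0.19 ± 0.11) came next after Ccl28. No overlap was seen for Ccr10 and Cxcl14 upward and Ccl9 downward among the tested members, against 5.86% and 5.58% of all tested genes. The noise-level Cxcl1 had no overlap either, 11, 16 and 10 reads in IPA crush against 1, 4 and 7 in vehicle crush, a log2 difference of 1.43 (edgeR adjusted p = 0.71). In the average over both states Ccr10 (0.20 ± 0.07), Ccl27a (0.16 ± 0.06) and Cxcr7 (-0.17 ± 0.06) followed Ccl28, none with an adjusted p below 0.157.

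For the interaction the smallest p was that of Cxcl16, whose rise after crush was 0.37 ± 0.15 smaller on the log2 scale under IPA (coded as -0.37, 95% interval -0.69 to -0.05, adjusted p = 0.9997). Cx3cl1 (-0.26 ± 0.12), Ccl9 (-0.35 ± 0.17) and Ccl11 (-0.36 ± 0.19) came next, all with the same adjusted p. The unadjusted 95% interval lay within a 1.5-fold difference in either direction for 21 of the 26 members without injury, 22 after crush, 24 averaged and 15 for the interaction. That bound is on the log2(value + 0.5) scale, where changes of low genes come out too small. For low members an interval within it still allows a larger ratio of values. Intervals that reached beyond that without injury belonged among others to Cxcl9 (-0.52 to 1.24), Cxcl10 (-0.21 to 0.99) and Ccl8 (-0.10 to 0.76). Each interval named here reached beyond the bound upward only, so for these genes the data leave room for a higher value of that size under IPA.

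**Figure D5:**
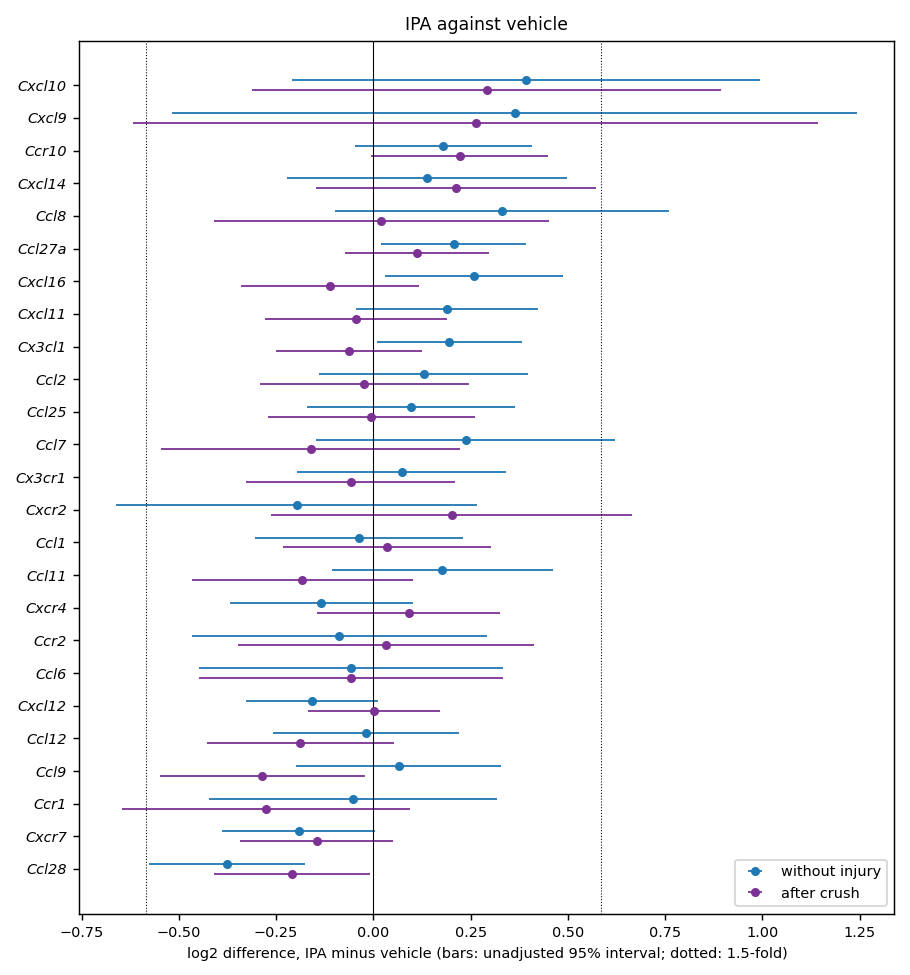
Log2 difference between IPA and vehicle (horizontal axis, with unadjusted 95% intervals from limma) of 25 of the 26 tested members, without injury and after crush, with dotted lines at a 1.5-fold difference. No member passed after adjustment, and Ccl28 lies lowest without injury, at -0.38.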

How the data were processed

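RNA of 12 libraries, 3 in each of 4 groups, was measured. Per the labels' protocols, directional libraries of poly(A) RNA (integrity number over 8.0) were sequenced from both ends, 75 bases each. Without roles, the submitters' processing notes name FastQC 0.10.1, STAR 2.7.0, limma 3.38.3, edgeR 3.24.3, R 3.5.0 and the build mm10. The program that counted reads, its strand setting and its annotation were not given in the sources used here. One table named FPKM was deposited by the authors, but its values are CPM-like, as gene length was not divided out: 100.0% of the values in each library were whole multiples of 1 step within a tolerance of 1e-06, so reads were recovered. That was settled after the tests had been chosen for FPKM, and they were kept, since they suit both units.

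Values were taken as log2(value + 0.5) for genes above 0.5 in at least 3 libraries and fitted with limma-trend (limma 3.58.1, R 4.3.3) with 4 group means and 8 residual degrees of freedom, Benjamini-Hochberg adjusted over 15603 genes. On this scale changes of low genes come out too small. Alternatives were pseudocounts of 0.1 and 1, no filter or a filter of 1, 3 other scalings, a replicate block, only the compared libraries, edgeR 4.0.16 and DESeq2 1.42.0 on recovered reads, and each library left out. Chosen after seeing the data were the fit without 3 libraries that stood apart and edgeR on genes with 10 or more reads. The test was also run on simulated reads, with the same spread for every gene and changes only in genes with a mean value of at least 1. That simulation does not bear on genes that are lower or vary more.

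Members and gene lists were chosen with earlier results of these data known. One tested member is counted but otherwise not reported here. The others are named, with values per library for those among the 8 largest averaged changes and for Cxcl12, Cxcl16, Cx3cl1 and Cxcr4, the 4 smallest p in each IPA comparison, and 3 genes of each pathway list. Single values in other places were chosen after they were seen. Without a known strand setting, reads of the 6 tested members whose exons overlap a gene on the other strand (Ccl25, Ccl27a, Cx3cr1, Cxcl10, Cxcl11 and Cxcl16) cannot be assigned with certainty.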

Additional observations from a re-analysis of the deposited data

How the results depend on the processing

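The number of members called ranged over all alternatives from 16 to 18 for injury under vehicle (17 as reported), 14 to 19 under IPA (17) and 18 to 25 averaged (21), and was 0 in every IPA comparison. Of the members called, 16 of 17 under vehicle, 13 of 17 under IPA and 19 of 21 averaged were called in each alternative that tested them (a filter of 1 left Ccl12 untested); the others are Ccr10 (lost in 10 of 25), Ccl28 (22 of 25), Cxcr2, Cxcr7 and Cxcl12 under IPA, and Ccl1 and Cxcr2 averaged. Without the 3 libraries that stood apart 17, 15 and 20 members were called. Under vehicle Ccr10 was lost (limma adjusted p = 0.0807) and Ccl1 gained (0.0319). Under IPA Ccl28 (0.0888), Cxcr2 (0.125) and Cxcr7 (0.177) were lost and Cxcr4 gained (0.00762), and averaged Cxcr2 was lost (0.0877). Quantile normalization also called Cxcl11 under IPA and averaged, Ccl1 under vehicle (0.0104) and IPA (0.0469) and Ccr10 under IPA (0.0275). TMM, another scaling, called Ccl25 averaged (0.0464). DESeq2 called 3 of all genes for IPA without injury, 15 after injury, 365 averaged and 3 for the interaction, and no member; without the 3 libraries that stood apart 1 gene was called averaged. With 1 library left out, all-gene calls ranged from 0 to 1 for IPA after injury and from 0 to 3 averaged. The causes were not tested.

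Signs turned only in members that did not pass. Ccl27a under vehicle was 0.014 without the 3 libraries that stood apart, and ranged from -0.10 to 0.014 with 1 library left out; Cxcl11 ranged from -0.12 to 0.042. Cxcl10 under IPA was -0.024 with quantile normalization, -0.044 with edgeR, -0.038 with DESeq2 and -0.047 with edgeR on all genes with 10 or more reads, and ranged from -0.34 to 0.32 with 1 library left out. Cxcl9 under IPA was 0.11 without the 3 libraries, and ranged from -0.77 to 0.31. Averaged, Cxcl10 ranged from -0.10 to 0.23 and Cxcl9 from -0.51 (without IPA replicate 3) to 0.028 (without IPA replicate 2).

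Replicate numbers showed no clear pairing of the libraries: of 18 same-numbered pairs 4 had a correlation of deviations over 0.1 (range -0.25 to 0.29). In 6 of 12 libraries the mean correlation was higher with libraries of the same number than with those of other numbers. With 3 libraries a group, some of which stood apart, this check cannot exclude a pairing. With a replicate block 16, 16 and 21 members and 7210, 6515 and 9053 of all genes were called for the 3 injury comparisons, and 0 for IPA. Depth limits mainly the 30 members at noise level.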
